A study of Homo sapiens with 6 samples.

Results

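The BTG and TOB antiproliferative family was described in KOPTK1, a human cell line of acute T-lymphoblastic leukaemia (T-ALL), after inhibition of the kinases CDK4 and CDK6. The members were 5 genes, BTG1, BTG2, BTG3, TOB1 and TOB2, and every probe set was taken whose platform annotation gives a single gene symbol among them. This found 12 probe sets of 54613 tested, for 4 of the 5 genes, out of 19775 genes in all. BTG2 was not analysed here. Cultures received, for 48 h, either 1 µM PD0332991 (palbociclib, an inhibitor of CDK4 and CDK6; n = 3 arrays) or vehicle alone (n = 3 arrays), without any genetic change described in the labels. The triplicates are described by the submitters as biological, and all come from this 1 line. RNA was measured on one-colour Affymetrix arrays as a linear intensity per probe set, a set of short probes that matches 1 or more transcripts. The design implies 1 comparison, PD0332991 against vehicle.

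BTG and TOB proteins share an N-terminal domain, the APRO domain, through which they bind the CAF1 nucleases CNOT7 and CNOT8 of the CCR4-NOT complex. CCR4-NOT shortens the poly(A) tails of messenger RNAs, and TOB proteins also bind the poly(A)-binding protein PABPC1 and so bring it close to the nuclease. Overexpressed members slow cell division in many cell types. In mice, BTG1 and BTG2 keep T cells quiescent, and TOB1 is known as a brake on the activation of human T cells.

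The promoters are shown first. Whether they bear on the changes of the genes, of which 3 rose and 1 fell, was not tested. Each is 300 bases of RefSeq sequence (GRCh38.p14), from 250 bases before the annotated start to 50 after it, 5′ to 3′ on the gene's strand. All 4 genes matched the promoter table, TOB1 with 2 starts. Capitals mark matches, on either strand, to any of 8 letter strings: the CRE core string TGACG, the TATA box TATAAA, the CCAAT box CCAAT, the FOXO site GTAAACA, the E2F forms TTTCCCGC and TTTGGCGC, the CHR element TTTGAA and the GC box CCGCCC. The strings and the TOB1 window shown were chosen after the sequences and the expression values had been seen, so the matches are a description only. BTG1 lies at chr12:92145797-92146096, TOB1 (the start with the lower coordinate) at chr17:50866305-50866604, TOB2 at chr22:41446752-41447051 and BTG3 at chr21:17612852-17613151, all on the minus strand.
BTG1: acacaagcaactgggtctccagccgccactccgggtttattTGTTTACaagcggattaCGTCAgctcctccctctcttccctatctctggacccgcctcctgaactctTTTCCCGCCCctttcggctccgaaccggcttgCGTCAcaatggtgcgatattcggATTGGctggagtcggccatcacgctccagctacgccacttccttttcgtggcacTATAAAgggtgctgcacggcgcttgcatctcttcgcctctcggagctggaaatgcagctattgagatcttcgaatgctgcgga
TOB1: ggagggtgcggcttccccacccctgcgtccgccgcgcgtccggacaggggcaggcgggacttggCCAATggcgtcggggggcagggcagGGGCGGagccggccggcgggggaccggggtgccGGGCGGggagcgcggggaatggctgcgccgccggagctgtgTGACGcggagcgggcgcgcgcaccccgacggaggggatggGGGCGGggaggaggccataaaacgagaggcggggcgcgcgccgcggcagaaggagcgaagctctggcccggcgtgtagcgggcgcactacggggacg
TOB2: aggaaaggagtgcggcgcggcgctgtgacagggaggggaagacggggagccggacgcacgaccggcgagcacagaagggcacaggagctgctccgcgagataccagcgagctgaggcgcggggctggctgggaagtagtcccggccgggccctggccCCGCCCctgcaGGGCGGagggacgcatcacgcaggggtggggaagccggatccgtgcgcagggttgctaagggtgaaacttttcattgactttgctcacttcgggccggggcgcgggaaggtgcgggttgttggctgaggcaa
BTG3: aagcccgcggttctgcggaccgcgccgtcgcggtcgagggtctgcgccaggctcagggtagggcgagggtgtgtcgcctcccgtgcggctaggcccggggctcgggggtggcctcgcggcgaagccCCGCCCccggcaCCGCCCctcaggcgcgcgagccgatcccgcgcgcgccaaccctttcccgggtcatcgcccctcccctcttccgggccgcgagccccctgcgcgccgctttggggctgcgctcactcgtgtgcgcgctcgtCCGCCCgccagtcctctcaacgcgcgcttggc

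The BTG1 window held the most kinds of match. TATAAA began 33 bases before the start, a string found in 11.5% of 35116 promoters of this length. The FOXO string was present on the reverse strand, 209 bases before the start, and occurs in 3.42% of promoters. TTTCCCGC began 142 bases before the start, as in 1.63% of promoters anywhere in the window, and ran into the GC box. BTG1 also held the CRE core string in 2 places, both on the reverse strand, and 1 reverse CCAAT box, strings present in 24.6% and 34.6% of promoters.

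The windows of the other genes held fewer kinds. BTG3 matched only the GC box, in 3 places, a string found in 45.0% of promoters. TOB2 matched the GC box once on each strand. The TOB1 window shown held 3 reverse GC boxes, 1 CRE core string and 1 CCAAT box, and the window of its other start held no match to the 8 strings. The second E2F form and the CHR element had no match in any of the 5 windows and occur in 0.652% and 15.2% of promoters. GC content was 56% for BTG1, 78.7% for the TOB1 window shown, 68.7% for TOB2 and 77.3% for BTG3, against a median of 58.7% over all promoters. A match is a description of letters and says nothing of binding in these cells.

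BTG1, TOB1 and TOB2 RNA rose with PD0332991, and BTG3 RNA fell. All 4 genes passed an adjusted p of 0.05 in limma, a linear model with a moderated test across all genes, with Benjamini-Hochberg adjustment. In the same test 29.3% of all genes passed, 15.6% higher and 13.6% lower. Among the 10166 genes with a brighter group mean over the all-gene median, which holds all 4, 49.7% passed. The groups did not overlap for any of the 4 genes, as for 43.0% of all genes. So many genes moved that the count of members passing is not a result about the family. The values are relative to the other RNAs of each array. In a bulk culture, more cells in a state that holds an RNA and more of that RNA per cell cannot be told apart.

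BTG1, a partner of CNOT7 and of the arginine methyltransferase PRMT1, had the largest increase of the 4 genes. Its brightest probe set, 200921_s_at, had intensities of 6239, 6665 and 6329 in PD0332991 arrays, against 2765, 3094 and 3453 in vehicle arrays. The lowest PD0332991 array was far above the highest vehicle array, and the vehicle arrays were the more spread. The means were 6411 ± 225 with PD0332991 and 3104 ± 344 with vehicle (SD, n = 3 each), and its log2 fold change was 1.05 (95% interval 0.82 to 1.27, SE 0.09, adjusted p = 5.1e-04 by limma). Of the 3088 genes called higher, 247 rose by more.

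TOB1, which encodes a protein that links CCR4-NOT to the poly(A) tail through PABPC1, rose as well. Its probe set 202704_at had intensities of 2988, 3155 and 3084 with PD0332991, against 1572, 1689 and 1735 with vehicle. The arrays of each group lay close together and the groups did not overlap. The log2 fold change was 0.88 (95% interval 0.73 to 1.03, SE 0.06, adjusted p = 2.3e-04 by limma), or 1.84-fold on the scale of log2(intensity + 16). Of the genes called higher, 430 rose by more, or 13.9%.

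TOB2, the closest relative of TOB1, rose least. Its probe set 222243_s_at had intensities of 1523, 1484 and 1497 with PD0332991, against 926, 948 and 1034 with vehicle. The PD0332991 arrays differed from each other by little, with an SD of 19.8 around 1501, and all lay above the vehicle arrays, with an SD of 57.2 around 969. The log2 fold change was 0.62 (95% interval 0.47 to 0.78, SE 0.06, adjusted p = 8.3e-04 by limma), or 1.54-fold. Of the genes called higher, 964 rose by more, or 31.2%.

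BTG3, also called ANA, whose protein has been reported to bind the transcription factor E2F1 and the checkpoint kinase CHEK1, went the other way and had the largest change of the 4 genes. Its probe set 213134_x_at had intensities of 781, 753 and 839 with PD0332991, against 2048, 1967 and 2240 with vehicle. Every PD0332991 array was below every vehicle array by a wide margin. The means were 791 ± 43.4 with PD0332991 and 2085 ± 140 with vehicle (SD, n = 3 each). On the scale of log2(intensity + 16) it fell 2.60-fold, that is, a log2 change of −1.38 (95% interval −1.56 to −1.20, SE 0.08, adjusted p = 9.1e-05 by limma). Of the 2698 genes called lower, 293 fell by more, or 10.9%.

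**Figure D1:**
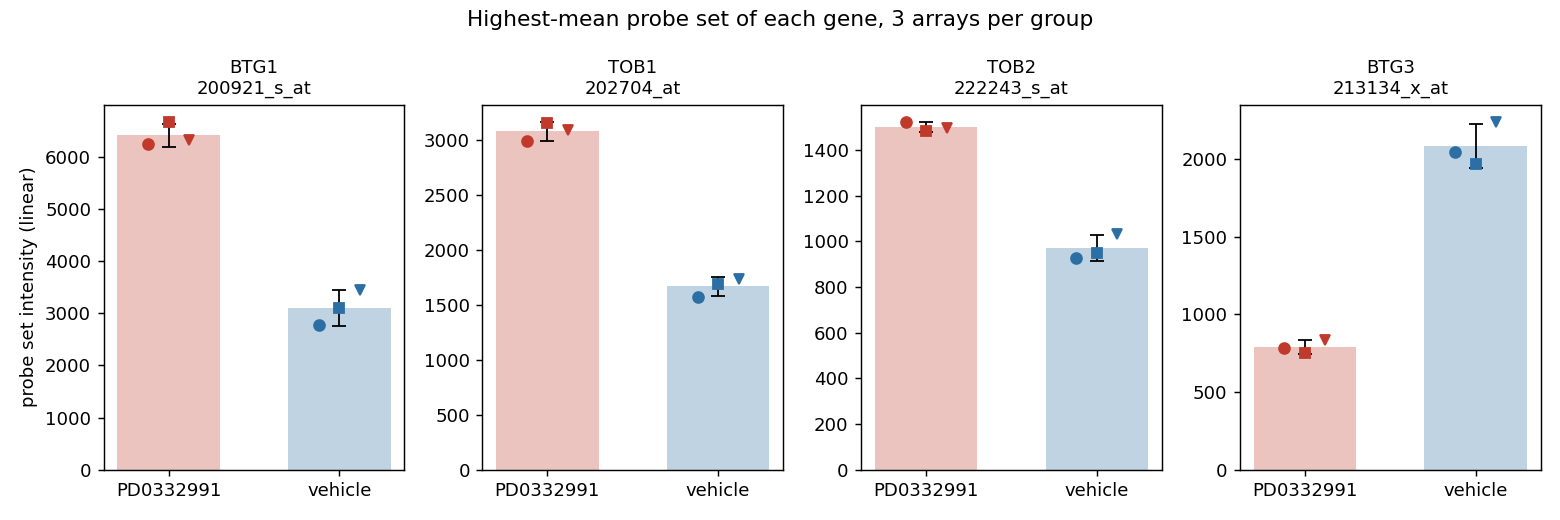
Linear intensity (vertical axes, each from 0) of the highest-mean probe set of BTG1, TOB1, TOB2 and BTG3 on 3 PD0332991 arrays and 3 vehicle arrays. Bars are means, error bars are SD, and circles, squares and triangles are replicates 1, 2 and 3. PD0332991 arrays lie above all vehicle arrays for BTG1, TOB1 and TOB2 and below all of them for BTG3.

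The sizes of the changes were set against each other within each array, as the difference of log2 values of 2 genes, for all 6 pairs. This comparison was chosen after the values were seen. The change of BTG1 exceeded that of BTG3 by 2.43, and those of TOB1 and TOB2 exceeded that of BTG3 by 2.26 and 2.0. Among the genes that rose, BTG1 exceeded TOB1 by 0.17 and TOB2 by 0.42, and TOB1 exceeded TOB2 by 0.26. For BTG1 and TOB1 the within-array difference was 1.06 ± 0.02 with PD0332991 and 0.89 ± 0.09 with vehicle (SD, n = 3 each). For every pair the exact permutation test, two-sided, gave p = 0.1, which is the lowest this test can give with 6 arrays in 2 groups, and 0.1 after adjustment over the 6 pairs, so it cannot separate large from small differences. For BTG1 and BTG3 the within-array difference was 2.99 ± 0.11 with PD0332991 and 0.57 ± 0.12 with vehicle (SD, n = 3 each), a gap many times the spread between arrays. Levels of different probe sets were not compared, since a probe set's brightness also depends on its probes.

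**Figure D2:**
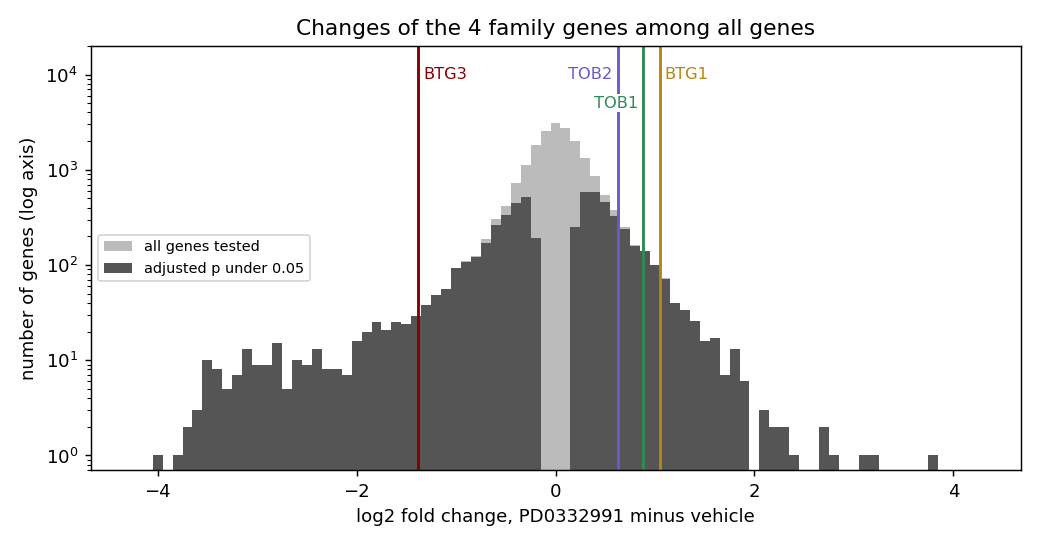
Number of genes (vertical log axis) by log2 fold change, PD0332991 minus vehicle (horizontal axis, bins of 0.1), for all 19775 genes in light grey and those with an adjusted p under 0.05 in dark grey, with lines at the 4 family genes. BTG1, TOB1 and TOB2 lie right of the centre at 1.05, 0.88 and 0.62, and BTG3 lies left of it at −1.38.

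Probe sets of the same gene were then compared, in a fit over all 54613 probe sets. Of the 12 family probe sets, 6 rose, 2 fell and 4 did not pass, where 10.7% of all probe sets were called higher and 10.2% lower. The groups did not overlap for the 8 that passed, as for 36.7% of all probe sets. No gene had probe sets called in both directions. The 4 that did not pass were dim, with group means between 31.7 and 129, and had log2 fold changes between −0.16 and 0.08 (adjusted p between 0.453 and 0.988 by limma). Level alone did not separate them from those that passed. The TOB2 probe set 221496_s_at passed with means of 156 with PD0332991 and 87.4 with vehicle. The deposited values carry no detection calls, and the median intensity of an array was 49.1 to 54.2. The BTG3 probe sets that did not pass lay above that median, with means of 113 and 129 (1556213_a_at) and 63.6 and 70.7 (215425_at). Whether these 4 measured any transcript of their gene cannot be told from the values.

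BTG1 had 2 bright probe sets that rose and 1 dim one that did not pass. The second, 200920_s_at, had 3865, 4115 and 3678 in PD0332991 arrays, against 1637, 1766 and 1731 in vehicle arrays, a log2 fold change of 1.17 (adjusted p = 2.1e-04 by limma, SE 0.07). Its groups did not overlap, and its change differed from that of 200921_s_at by 0.13 (two-sided exact permutation p = 0.2, 0.32 adjusted over 8 pairs of probe sets). The dim probe set 1559975_at had 30.1, 27.5 and 37.5 with PD0332991, against 25.5, 26.1 and 46.2 with vehicle, and its groups overlapped throughout. Its log2 fold change was −0.01 (95% interval −0.44 to 0.42), and with means under the array median it bears on the change of BTG1 only if it measured the transcript. The difference from 200921_s_at was −1.05 (two-sided exact permutation p = 0.1, the smallest possible, 0.2 adjusted over the 8 pairs).

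BTG3 likewise had 2 bright probe sets that passed and 2 dim ones that did not. The bright probe set 205548_s_at had 753, 713 and 728 with PD0332991, against 1821, 1845 and 1977 with vehicle, and a log2 fold change of −1.34 (adjusted p = 9.5e-05 by limma, SE 0.07). It fell, as 213134_x_at did, and its change differed from that one by 0.04 (two-sided exact permutation p = 0.6). The probe set 1556213_a_at had 107, 108 and 124 with PD0332991, against 125, 106 and 156 with vehicle, and 215425_at had 68.3, 55.6 and 66.7 with PD0332991, against 71.7, 76.8 and 63.7 with vehicle. The groups of both overlapped, and their log2 fold changes of −0.16 and −0.13 differed from that of 213134_x_at by 1.22 and 1.25 (two-sided exact permutation p = 0.1 each, 0.2 adjusted over the 8 pairs).

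Both probe sets of TOB1 rose, as did 2 of the 3 of TOB2. The second TOB1 probe set, 228834_at, had 245, 333 and 297 with PD0332991, against 133, 126 and 156 with vehicle, a log2 fold change of 0.99 (adjusted p = 0.0034 by limma, SE 0.13). For TOB2, 221496_s_at had 141, 153 and 174 with PD0332991, against 95.5, 77.6 and 89.0 with vehicle, a log2 fold change of 0.74 (adjusted p = 0.0044 by limma, SE 0.10). In both, the groups did not overlap. The dim probe set 234720_s_at had 32.5, 35.1 and 38.4 with PD0332991, against 33.2, 33.7 and 31.0 with vehicle, and a log2 fold change of 0.08 (95% interval −0.10 to 0.25).

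**Figure D3:**
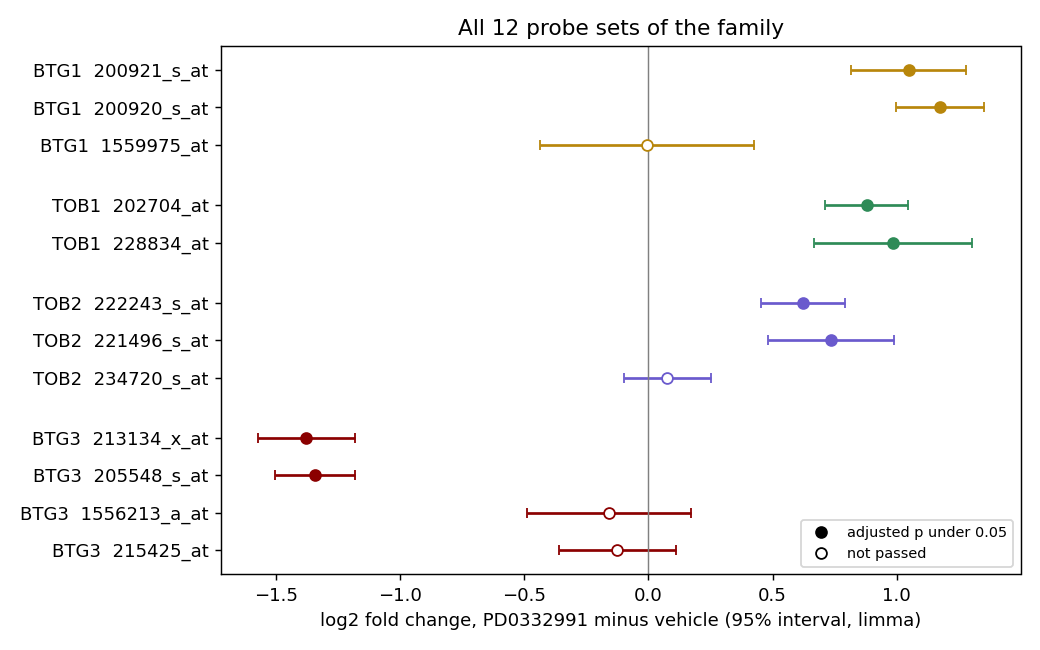
Log2 fold change, PD0332991 minus vehicle, with its 95% interval from limma (horizontal axis), for each of the 12 family probe sets, grouped by gene with the brightest first. Filled points passed an adjusted p of 0.05 and open points did not. The open points of BTG1, TOB2 and BTG3 lie near 0, away from the brighter probe sets of the same gene.

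Names ending in _s_at mark probe sets that match several transcripts and those ending in _x_at may cross-hybridise. The bright probe sets of BTG1, TOB2 and BTG3 all carry such endings. Without these probe sets, BTG1 stood at −0.01 (adjusted p = 0.987 by limma) and BTG3 at −0.16 (adjusted p = 0.481 by limma), both through a dim probe set. TOB2 had no probe set left, and TOB1 kept its value of 0.88 (adjusted p = 3.2e-04 by limma). With the mean of a gene's probe sets, BTG3 was at −0.75 (adjusted p = 5.0e-04 by limma) and stayed called. BTG1, TOB2 and BTG3 each have a pseudogene in the RefSeq table, and signal from such copies cannot be separated from the gene by a probe set that matches both.

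Genes of the CCR4-NOT complex, through which the family acts, changed in both directions. Of its 12 subunits on the list, all measured, 4 rose, 2 fell and 6 did not pass, a share of 50% against 29.3% of all genes and 49.7% of the brighter genes, to which 11 of the 12 belong. Among those 11 brighter subunits 6 were called, or 54.5%, near the 49.7% of all brighter genes. The subunits had a median log2 fold change of 0.09 against 0.01 over all genes. The CAF1 nucleases that bind BTG and TOB proteins did not pass. CNOT7 averaged 4913 ± 217 with PD0332991 and 4600 ± 64.6 with vehicle (SD, n = 3 each), and its log2 fold change was 0.09 (adjusted p = 0.298 by limma). CNOT8 averaged 1814 ± 96.2 with PD0332991 and 1775 ± 48.2 with vehicle (SD, n = 3 each), and its log2 fold change was 0.03 (adjusted p = 0.782 by limma). CNOT6, a CCR4-type nuclease, rose by 0.41 and CNOT4, a ubiquitin ligase, by 0.43. CNOT9 fell by 0.45 and CNOT10 by 0.45 on the log2 scale, and 3 of the other probe sets of CNOT9 were lower too. CNOT4 was at 0.12 (adjusted p = 0.381 by limma) on averaging its probe sets. Without vehicle replicate 1, 2 subunits were called higher, and likewise with the mean of probe sets.

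Of 12 measured genes of other deadenylases and poly(A)-binding proteins, from a list of 13, 4 rose, 1 fell and 7 failed to pass, and the median was 0.16. The share called was 41.7%, against 29.3% of all genes. Of the 10 among the 12 that belong to the brighter genes, 40% were called, against 49.7% of all brighter genes. PABPC1, the poly(A)-binding protein that TOB proteins bind, was at 0.05 (adjusted p = 0.597 by limma) and is named after its values were seen. PABPN1, the nuclear poly(A)-binding protein gene, averaged 880 ± 48.1 with PD0332991 and 566 ± 7.59 with vehicle (SD, n = 3 each), and its log2 fold change was 0.62 (adjusted p = 7.6e-04 by limma). PABPC1L, a relative of PABPC1, rose by 0.77, and was at 0.21 (adjusted p = 0.330 by limma) when _x_at and _s_at probe sets were dropped. ANGEL2 rose by 0.33 and was at 0.17 (adjusted p = 0.0572 by limma) on averaging its probe sets. The deadenylase gene TOE1 fell by 0.45.

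Of 11 genes of proteins reported to bind BTG or TOB proteins, 1 rose, 4 fell and 6 failed to pass, and the median was −0.08. That is 45.5% called, where 29.3% of all genes were, 13.6% lower. Of the 8 among these 11 that belong to the brighter genes, 5 were called, or 62.5%, against 49.7% of all brighter genes. CHEK1 and E2F1, whose proteins have been reported to bind BTG3, were among those that fell. The CAF1 nucleases, counted above with CCR4-NOT, did not pass. CHEK1 averaged 411 ± 41.7 with PD0332991 and 1720 ± 52.1 with vehicle (SD, n = 3 each), and its log2 fold change was −2.03 (adjusted p = 4.0e-05 by limma, SE 0.09). E2F1 averaged 66.8 ± 6.13 with PD0332991 and 158 ± 5.76 with vehicle (SD, n = 3 each), and its log2 fold change was −1.08 (adjusted p = 2.1e-04 by limma, SE 0.07). PRMT1, the partner of BTG1, was at −0.03 (adjusted p = 0.813 by limma). SMAD4, which transmits TGF-beta signals, fell by 0.50. CPEB4, of the family of RNA-binding proteins that TOB proteins link to CAF1, rose by 0.50 and was at 0.34 (adjusted p = 0.0739 by limma) on averaging its probe sets.

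Adapters that bring CCR4-NOT to chosen messenger RNAs went both ways. Of 11 measured, from a list of 12, 4 rose, 2 fell and 5 failed to pass, and the median was 0.11. Called adapters made up 54.5%, against 29.3% of all genes. Of the 10 among the 11 adapters that belong to the brighter genes, 60% were called, against 49.7% of all brighter genes. NANOS1 averaged 72.2 ± 7.57 with PD0332991 and 298 ± 29.7 with vehicle (SD, n = 3 each), and its log2 fold change was −1.83 (adjusted p = 8.9e-05 by limma). Its dimmer probe set had the opposite sign, at 0.27, and was not called (adjusted p = 0.195 by limma over all probe sets). ZFP36L1, which binds AU-rich elements, fell by 0.37, and was at −0.18 (adjusted p = 0.0905 by limma) on averaging its probe sets and −0.19 (adjusted p = 0.406 by limma) when _x_at and _s_at ones were dropped. TNRC6B, a partner of Argonaute proteins, rose by 0.41. Its call was lost when PD0332991 replicate 1 or 3 or any vehicle array was left out (adjusted p between 0.0573 and 0.0778 by limma). Of its 7 probe sets, 4 besides the brightest were called higher and 0 lower in the fit over all probe sets, with all arrays. RC3H1, which encodes roquin-1, rose by 0.36 and was no longer called without vehicle replicate 1 (adjusted p = 0.0576 by limma) and on averaging its probe sets (adjusted p = 0.114 by limma). The adapters called higher numbered 1 without vehicle replicate 1.

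Few genes were listed as reported regulators of BTG or TOB transcription. Of 6 measured, from a list of 7, 1 rose, 1 fell and 4 failed to pass, and the median was −0.0036. The share called was 33.3%, against 29.3% of all genes and 49.7% of the brighter genes, to which all 6 belong. FOXO1 was at −0.10, FOXO3 at −0.06 and FOXO4 at 0.13, none of which passed, and these are named after their values were seen. KLF2, a quiescence factor of T cells, averaged 771 ± 69.9 with PD0332991 and 1917 ± 297 with vehicle (SD, n = 3 each), and its log2 fold change was −1.29 (adjusted p = 8.3e-04 by limma). This rests on its _s_at probe set: the other, dim one gave 0.17 (adjusted p = 0.696 by limma as the gene's value), and their mean −0.56 (adjusted p = 0.0586 by limma). NFKB1 rose by 0.30.

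**Figure D4:**
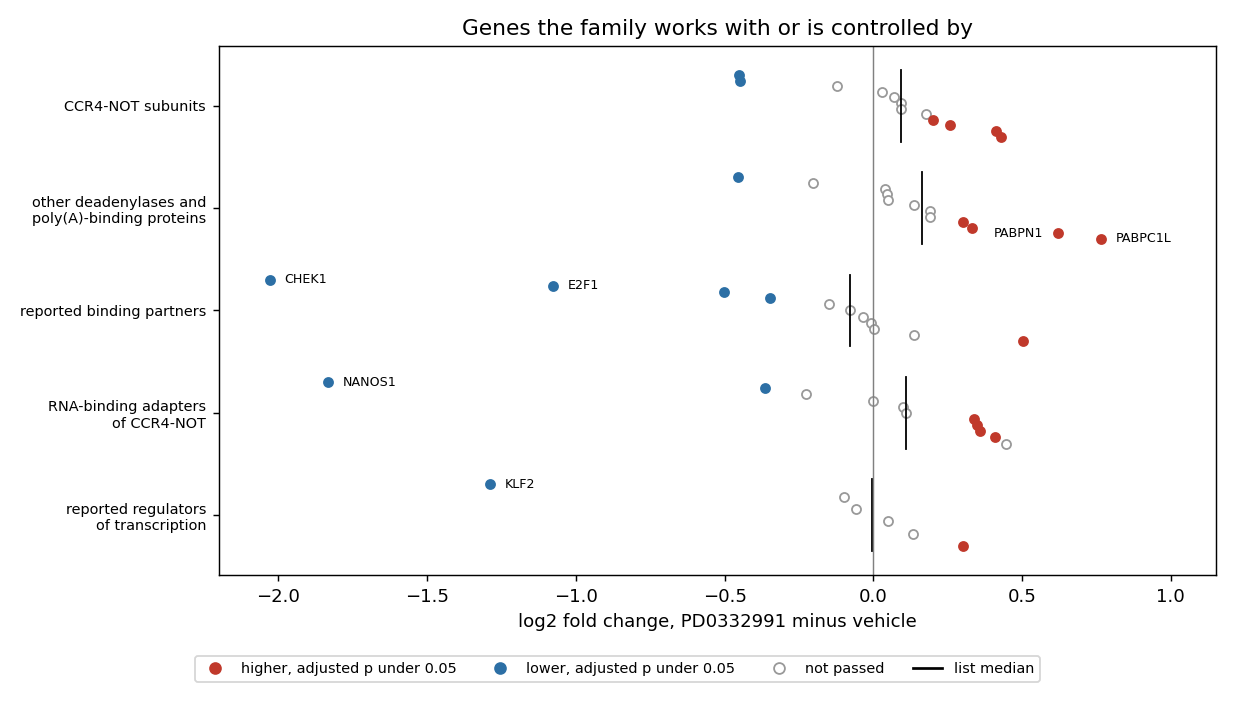
Log2 fold change, PD0332991 minus vehicle (horizontal axis), of each measured gene in 5 lists of genes that the BTG and TOB proteins work with or may be controlled by (rows). Red points passed higher, blue points passed lower, open points did not pass, and black lines are list medians. List medians lie between −0.08 and 0.16, and CHEK1, NANOS1, KLF2 and E2F1 lie furthest left.

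Over the 6 arrays, the genes most like each member were ranked by Pearson correlation of log2 values among the 10165 other genes of the brighter kind. These coefficients have 6 points that fall into the 2 groups, share arrays and are given without a test. For BTG1 the highest were FNBP1, MR1 and PLBD2, with r of 0.9995, 0.9995 and 0.9995, among 317 genes above 0.99. For TOB1 they were EPHB1, PIK3CG and LAIR1, with r of 0.9999, 0.9997 and 0.9993. For TOB2 they were CARINH, GSK3B and LINC02615, with r of 0.9997, 0.9996 and 0.9995. For BTG3 they were NUP205, GINS4 and CENPI, with r of 0.9993, 0.9992 and 0.9990, among 492 genes above 0.99. With so many genes above that value, the ranks separate little.

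The T-cell identity of the line was checked by markers. All 9 T-lineage markers had a mean intensity over 100, and their summed level was 25788 to 27080 in PD0332991 arrays and 20608 to 22511 in vehicle arrays. CD1A rose by 1.04, CD2 by 0.81 and PTCRA by 0.59 on the log2 scale (adjusted p = 1.3e-04, 2.3e-04 and 0.0027 by limma). CD3E, LCK and CD3G also passed higher, by 0.36, 0.35 and 0.33, and CD3D, CD5 and CD7 did not pass. Of 4 measured B-lineage markers, CD79A alone was over 100, and the summed level was 594 to 760 with PD0332991 and 366 to 431 with vehicle. CD79A rose by 0.94 (adjusted p = 0.0028 by limma). Of 5 myeloid markers none had a mean over 100 across all arrays, with sums of 215 to 230 with PD0332991 and 246 to 261 with vehicle. The brightest myeloid marker, MPO, averaged 83.8 with PD0332991 and 104 with vehicle (adjusted p = 0.023 by limma). HBB was the 1 of 2 measured erythroid markers over 100 and no stromal marker of 3 was, with sums of 176 to 230 and 126 to 141 with PD0332991, against 185 to 234 and 125 to 170 with vehicle. The part of these levels in the changes of the family was not tested. Pearson correlations between arrays, computed across genes (no independent replicates), were 0.993 to 0.996 within groups and 0.976 to 0.979 between them.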

How the data were processed

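RNA of KOPTK1 cells was measured on 6 arrays, 3 per group. The authors deposited 54675 summarised intensity values per array, 1 for each probe set. The steps of summarisation, background correction and scaling are not given in the sources used here. Values ran from 0.56 to 16362, a linear scale. Trimmed by 2% on either side, the array means were 281 to 292, and no normalization was added. No detection calls were given, and 25.6% of values lay below 16. The number of arrays limits the precision.

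Values were taken as log2(intensity + 16), which understates the change of dim genes. The 62 control probe sets were left out. Platform annotation gave 1 symbol for 41091 probe sets, several for 1801 and none for 11721, and gene IDs were used to bring symbols up to the RefSeq table of GRCh38.p14. The probe set with the highest mean stood for its gene. The test was two-sided, by lmFit and eBayes of limma 3.58.1 (R 4.3.3), with 4 residual degrees of freedom, over all genes, or all probe sets, with Benjamini-Hochberg adjustment and a threshold of 0.05. Single differences were compared by two-sided exact permutation over arrays.

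The members and lists were chosen with earlier results of these data known. Named were all members, up to 4 called genes with the largest changes per list, CNOT7, CNOT8 and PRMT1, and the 3 genes most like each member. The lists hold 55 genes, of which 52 were measured and the others were not analysed here. Alternatives were pseudocounts of 1 and 64, brighter features only, quantile normalization, centring on the median or 75th percentile, a robust or trended eBayes, averaged probe sets, no _x_at and _s_at probe sets, a replicate block, and omission of each array.

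The code was tested on simulated data for this comparison with 19775 genes. It recovered 19 of 50 genes with a log2 change of 0.5, 41 of 50 with 1, 49 of 50 with 2 and 50 of 50 with 3, and called 12 of 19575 unchanged genes. The changed genes were a far smaller share than the 29.3% called in these data, and noise was drawn separately for each gene. The adjustment depends on that share, so these recovery rates do not give the rates for these data. Figures were drawn with matplotlib 3.10.9.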

Additional observations from a re-analysis of the deposited data

How the results depend on the processing

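The changes of the 4 genes kept their direction and passed under all alternatives run, except where _x_at and _s_at probe sets were dropped. There BTG1 was at −0.0065 and BTG3 at −0.16, neither passing, and 1 member was called higher and 0 lower (limma adjusted p under 0.05; TOB1 was the member called), because only dim probe sets of BTG1 and BTG3 and none of TOB2 remained. With 1 array left out, log2 fold changes ran from 0.97 to 1.13 for BTG1, 0.84 to 0.91 for TOB1, 0.59 to 0.67 for TOB2 and −1.42 to −1.33 for BTG3. With the replicate block the sizes could not change, since each replicate number holds 1 array of each group. All 4 genes passed there, at limma adjusted p = 0.0050 for BTG1, 0.0039 for TOB1, 0.0090 for TOB2 and 0.0018 for BTG3. The block gave 2520 genes higher and 2273 lower, against 3088 and 2698. Deviations of same-numbered arrays from their group means correlated at r 0.12, 0.09 and 0.09 across genes, each array best with its own number, which is a hint from the data and not from the design.

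Values near 0 changed sign under some alternatives. The dim BTG1 probe set 1559975_at ran from −0.11 to 0.18 with 1 array left out and was at 0.010 with 75th percentile centring and 0.0027 with a pseudocount of 1. CNOT8 ran from −0.0063 to 0.070 and PRMT1 from −0.081 to 0.032 with 1 array left out. With a pseudocount of 64, the difference between the probe sets of TOB1 was −0.055, and between 221496_s_at and 222243_s_at of TOB2 −0.059. Differences between probe sets of a gene were recomputed only with the other pseudocounts and quantile normalization, not with arrays left out. KLF2 was at 0.17 when _x_at and _s_at probe sets were dropped. Over all lists together, 14 genes were called higher, 8 with the mean of probe sets, and 8 to 14 with 1 array left out, the lowest without vehicle replicate 1. Causes other than the probe sets left out were not tested.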

Other observations

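BTG4, a family member known from oocytes that was not among the members, had 2 probe sets at the low end of the scale. One had intensities of 14.8, 9.62 and 20.0 with PD0332991, against 22.0, 21.5 and 15.2 with vehicle, and the other 4.70, 2.86 and 9.13 with PD0332991, against 12.3, 11.0 and 6.69 with vehicle. Neither passed (limma adjusted p = 0.385 and 0.236 over all probe sets). BTG1-DT, a noncoding RNA named as a divergent transcript of BTG1, had 181, 152 and 150 with PD0332991, against 125, 126 and 160 with vehicle, a log2 fold change of 0.22 (95% interval −0.07 to 0.51, limma adjusted p = 0.285). TOB1-AS1, an antisense RNA of TOB1, had 27.5, 31.1 and 40.7 with PD0332991, against 42.3, 42.6 and 27.2 with vehicle, a log2 fold change of −0.12 (95% interval −0.50 to 0.27, limma adjusted p = 0.689). The groups overlapped for all 4 of these probe sets.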
